A study of Mus musculus with 5 samples.

Results

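Cd68 and 9 further genes of the lysosome and of autophagy were followed in C2C12 myoblasts after a manipulation of miR-16. They are Lamp1, Lamp2, Ctsb, Ctsd, Ctsl, Sqstm1, Map1lc3b, Gabarap and Tfeb. The genes were taken by symbol from a table of normalized counts for 12615 genes, and all 10 were found. C2C12 is an established line of mouse muscle precursor cells. RNA sequencing covered 2 samples labelled miR-16 knockdown and 3 labelled empty vector control, all of the same cell line and all taken at 5 hours. In the treatment protocol the transfected DNA is a plasmid for miR-16-1 (miR-16-5p) or the empty vector pCMVmiR, so the direction is taken from the group label and from the headings of the authors' deposited comparison. The labels do not state whether replicates are separate cultures, so their spread may be technical. The 10 genes were chosen by name and role, with their normalized counts and group differences in these 5 samples already known. Their differences between the groups are therefore a description, with no p-value of their own.

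The estimated depth was 15.2 and 17.0 M reads in knockdown samples 1 and 2, and 15.4 to 20.1 M reads in the empty vector samples. The column names place both knockdown samples and empty vector 2 on 1 flow cell, called B here. Empty vector samples 1 and 3 ran on another, called A. Empty vector 2 is therefore the only control on the flow cell of the knockdown samples, and differences against it alone are given beside the pooled ones. The lane and the series of sample codes in the column names divide the samples alike and cannot be told apart from the flow cell. All values are normalized counts, in which the reads of a gene were scaled by a size factor for each library. Markers of myoblasts were checked, and 9 of 10 were listed. They summed to 10700 and 10470 normalized counts in the knockdown samples and to 11380, 11220 and 11030 in the empty vector samples, so the sums did not overlap, while the groups overlapped in each single marker. Of the 9, 7 had lower values with knockdown, with a median log2 difference of -0.085, and 0.044 on flow cell B. Megf10, a receptor gene of muscle precursors, had 3730 and 3173 with knockdown and 4290, 3937 and 3651 with empty vector, a log2 difference of -0.20. The part of this in the results was not tested. Myod1, a transcription factor that sets the muscle lineage, had normalized counts of 1555 and 1600 in the knockdown samples and 1536 to 1685 in the empty vector samples. Of 8 fibroblast markers 4 were listed, with overlapping sums of 10350 and 12110 in the knockdown samples and 10470, 10660 and 12800 in the empty vector samples. Among them Pdgfra, a growth factor receptor gene, was below every empty vector sample, at 192 and 227 with knockdown and 250, 258 and 262 with empty vector. Of 4 endothelial markers, Kdr was listed, at 12.9 and 9.38 with knockdown and 17.1, 22.7 and 13.9 with empty vector.

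The lysosome is the acid compartment in which cells digest proteins, lipids and whole organelles. LAMP-1 and LAMP-2 coat the inner face of its membrane, and cathepsins B, D and L are among its main proteases. In autophagy a double membrane marked by lipid-bound proteins of the ATG8 family, such as LC3B and GABARAP, encloses cargo that p62 (Sqstm1) has tagged, and then fuses with the lysosome. The transcription factor TFEB switches on many lysosomal and autophagy genes through the element CACGTG when nutrient signalling is low. CD68 belongs to the LAMP family and is best known as a marker of macrophages. In muscle, lysosomes and autophagy clear damaged proteins and mitochondria.

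The manipulated miRNA is shown with its seed, bases 2 to 8, in capitals, since these bases pair with target messengers. Below it stand the only miR-16 seed matches found in the 3' UTRs of the 10 genes, with the match in capitals. The miRNA is from RefSeq (GRCm38.p6, chr14:61631936-61631957, minus strand), and the sites are from GENCODE transcripts, written as DNA from 5' to 3'.
mmu-miR-16-5p: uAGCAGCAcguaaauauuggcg
Map1lc3b site: tgctttaaagaTGCTGCTcagagggcggg
Tfeb site: ccttccccttgGCTGCTAcccccaccctg
Map1lc3b, which encodes LC3B, holds 1 match to bases 2 to 8 that starts at base 1199 of its 3' UTR of 1990 nt. Tfeb holds 1 match to bases 2 to 7 followed by an A, at base 129 of 601 nt. The other 8 genes hold no 7-base site in the transcript used, and Cd68 has a 3' UTR of 158 nt. Among 11264 tested genes with a 3' UTR, 27.0% hold such a site, with a median UTR length of 1051 nt. Both genes with a site had small differences between the groups, at log2 values of 0.066 for Map1lc3b and 0.068 for Tfeb, knockdown minus empty vector. Over the tested genes with a 3' UTR, the median log2 difference was -0.019 with such a site and 0.0072 without. The part of miR-16 in these values was not tested.

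Promoters of 3 genes are shown because they hold different numbers of the TFEB element. Each is the 250 bases before the start site in RefSeq (GRCm38.p6), from 5' to 3' on the strand of the gene. Capitals mark CACGTG, extended by a T before it or an A after it where TCACGTG or its reverse complement was matched. The intervals are chr8:13158911-13159160 (plus strand) for Lamp1, chr7:142387828-142388077 (minus strand) for Ctsd and chr11:69666171-69666420 (minus strand) for Cd68.
Lamp1: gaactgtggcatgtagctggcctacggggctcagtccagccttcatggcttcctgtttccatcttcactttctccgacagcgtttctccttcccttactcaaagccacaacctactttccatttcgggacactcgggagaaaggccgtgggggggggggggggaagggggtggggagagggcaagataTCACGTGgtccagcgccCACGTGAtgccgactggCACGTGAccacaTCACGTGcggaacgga
Ctsd: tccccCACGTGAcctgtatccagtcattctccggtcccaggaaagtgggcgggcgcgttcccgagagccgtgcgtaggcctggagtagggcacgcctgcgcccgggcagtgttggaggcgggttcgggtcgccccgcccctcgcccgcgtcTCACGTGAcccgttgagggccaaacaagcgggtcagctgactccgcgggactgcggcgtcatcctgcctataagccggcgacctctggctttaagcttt
Cd68: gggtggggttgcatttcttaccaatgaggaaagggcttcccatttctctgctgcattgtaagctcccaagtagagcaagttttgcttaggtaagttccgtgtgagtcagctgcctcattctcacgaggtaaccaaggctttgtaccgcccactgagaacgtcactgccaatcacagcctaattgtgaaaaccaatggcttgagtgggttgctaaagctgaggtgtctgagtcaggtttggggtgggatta
The Lamp1 promoter holds 4 copies of CACGTG, starting 61, 45, 28 and 15 bases before the start site. The Ctsd promoter holds 2 copies, starting 245 and 98 bases before it, and the nearer one lies in the longer motif TCACGTGA. Ctsl holds 1 copy, starting 236 bases before its start, and the Cd68 window holds 0. Promoter entries were matched for 9 of the 10 genes, and the windows of Lamp2, Sqstm1, Map1lc3b, Gabarap and Tfeb hold none either. Searched on both strands, CACGTG is present in 6.02% of 32851 promoter windows of this length, and TCACGTGA in 0.785%. At least 2 copies are present in 0.429% of the windows, and at least 4 in 0.0213%, which is 7 windows. The sequence CACGTG reads the same on both strands, and the longer motifs contain it. A match describes the letters of the window and not a bound site.

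Of the 10 genes, 6 had messengers among the more abundant of these cells, and Cd68 had the lowest level. Per kb of transcript, Sqstm1 had a mean of 7180 normalized counts over the 5 samples and Lamp1 had 6415. The 3 cathepsins followed at 3789 for Ctsd, 3503 for Ctsl and 2733 for Ctsb, and Gabarap stood at 2429. These 6 genes lay at or above the 96.6th percentile of all genes by level per kb. Lamp2 had 1151 normalized counts per kb and Map1lc3b 489. Tfeb, the transcription factor, had only 86.7 and Cd68 51.7, at the 34.8th and 26.3rd percentiles.

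The order was stable across samples. Sqstm1 was above Lamp1 per kb in 4 of 5 samples, with overlapping ranges. All other neighbours in the order kept their order in 5 of 5 samples without overlap of their ranges. The gap between Tfeb and Cd68 was the narrowest of these in absolute terms, with a lowest value of 75.1 for Tfeb and a highest of 74.8 for Cd68. The order depends on the transcript chosen for the length, which for Ctsb is 4743 nt long with a 3' UTR of 3594 nt. Within a sample, Lamp1 exceeded Lamp2 per kb 5.03 to 5.96 times. Gabarap exceeded Map1lc3b 4.34 to 5.53 times.

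**Figure D1:**
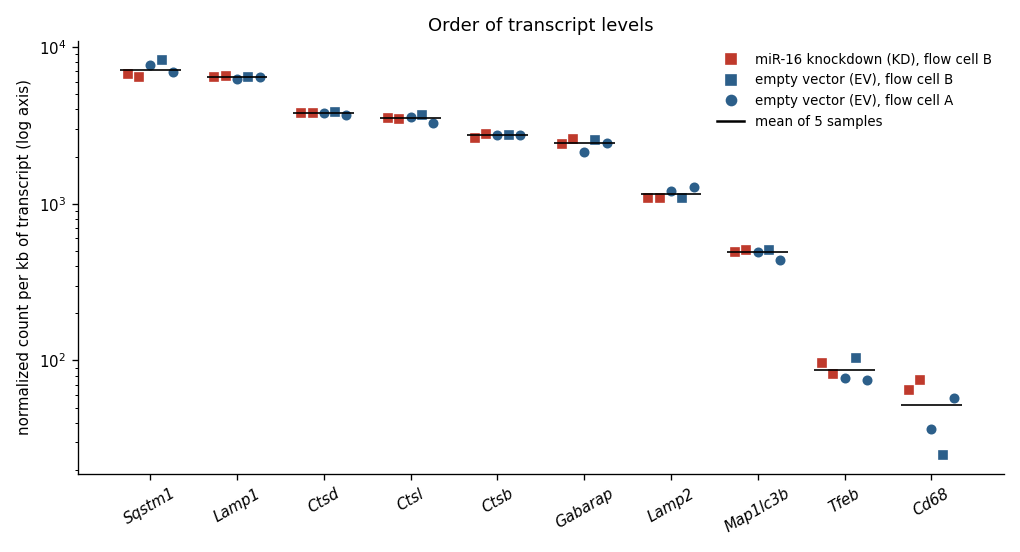
Normalized counts per kb of transcript (log axis) for the 10 genes, ordered by their mean over 5 samples (black lines), with 1 point per sample. Sqstm1 and Lamp1 lead with means of 7180 and 6415, and Tfeb and Cd68 stand apart at the bottom with means of 86.7 and 51.7.

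Cd68 had the largest difference of the 10 genes. Its normalized counts were 79.8 in knockdown 1 and 91.9 in knockdown 2, against 44.9, 30.8 and 70.7 in empty vector samples 1, 2 and 3. Both knockdown samples were above every empty vector sample, and the nearest control was empty vector 3. Means were 85.9 ± 8.60 (SD) over the 2 knockdown samples and 48.8 ± 20.2 (SD) over the 3 empty vector samples, which differ 1.76 times. The log2 difference was 0.88 with a moderated standard error of 0.33, on the scale of log2(value + 1) used throughout. Against empty vector 2 alone, which had the lowest Cd68 of all samples, it was 1.44. Without empty vector 2 it was 0.60. All standard errors given here are limma's moderated ones, which draw each gene's variance towards a trend over all genes. They are therefore not the spread of the samples alone. The within-group SD on the log2 scale was 0.486 for Cd68 and 0.106 for Sqstm1, but 0.025 for Lamp1 and 0.0196 for Ctsd.

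The Cd68 values rest on few reads. Cd68 had an estimated 74 and 98 reads in the knockdown samples, and 42, 38 and 66 in empty vector samples 1, 2 and 3. These estimates were judged from the step between low normalized counts, and the intervals below rest on them. Exact Poisson intervals at 95%, which cover counting error only, ran from 62.7 to 100.2 and from 74.6 to 112 normalized counts in the knockdown samples. In the empty vector samples they ran from 32.3 to 60.6, from 21.8 to 42.3 and from 54.7 to 90.0. The intervals of empty vector samples 2 and 3 were apart, so the controls differed among themselves by more than counting error. Empty vector 3 overlapped both knockdown samples in these intervals. The control with the lowest Cd68, empty vector 2, was the most deeply sequenced library.

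Because CD68 marks macrophages, other macrophage genes were looked up. Of 20 fixed markers, 4 were listed among the 12615 genes. The other 16, among them Adgre1, Ptprc and Itgam, were not listed, so their levels are not known. Csf1r, the receptor that macrophages need to survive, had 5.39 and 9.38 normalized counts with knockdown and 5.34, 8.93 and 13.9 with empty vector. Lyz2, a lysozyme gene of myeloid cells, had 6.47 and 2.81 with knockdown and 10.7, 8.11 and 6.43 with empty vector. Mrc1, the mannose receptor gene, had 20.5 and 11.3 with knockdown and 4.27, 19.5 and 6.43 with empty vector. Each of these 3 genes overlapped between the groups. They summed to 32.4 and 23.5 with knockdown and to 20.3, 36.5 and 26.8 with empty vector, and in empty vector 2 the sum exceeded the Cd68 value of 30.8. Mrc1 had a log2 difference of 0.80 ± 0.66 (SE), and -0.34 on flow cell B. Cd14, a co-receptor for bacterial lipopolysaccharide that is not limited to macrophages, had 378 and 431 with knockdown and 392, 432 and 388 with empty vector. The 4 markers summed to 410.8 and 454.1 in the knockdown samples and to 412.2, 468.2 and 414.6 in the empty vector samples, so the sums overlapped. Most of each sum was Cd14. Only Cd14 and Mrc1 reached the mean needed for testing, and their median log2 difference was 0.40, or -0.22 on flow cell B. The part of macrophage RNA in the Cd68 difference was not tested. In bulk RNA, a change in the number of expressing cells and a change in RNA per cell cannot be told apart.

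**Figure D2:**
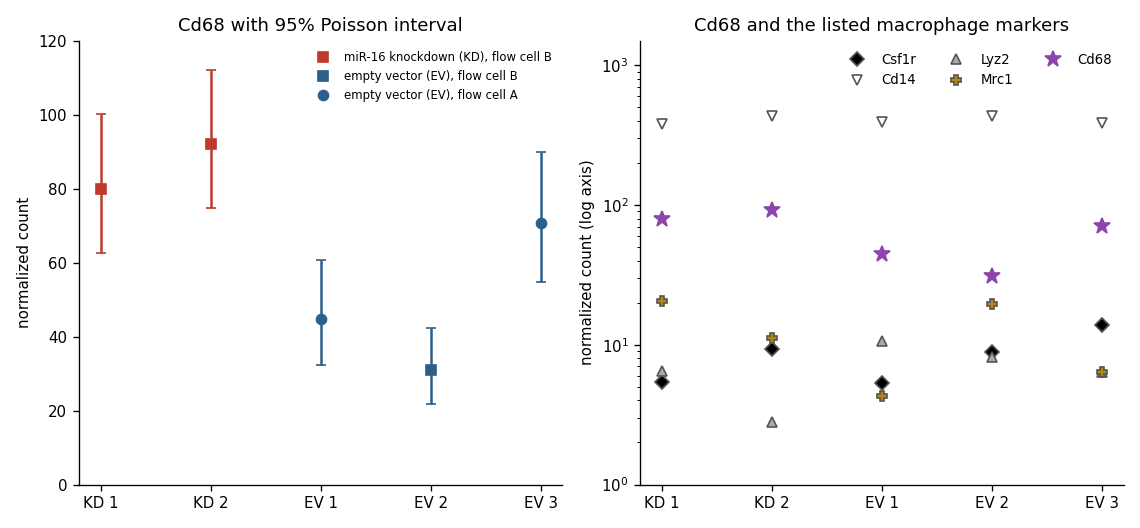
Left, normalized counts of Cd68 per sample with exact 95% Poisson intervals on the estimated reads. Right, Cd68 beside the 4 listed macrophage markers (log axis). Knockdown samples 1 and 2 have Cd68 values of 79.8 and 91.9, above the highest empty vector value of 70.7, while Cd14 is level and Csf1r, Lyz2 and Mrc1 stay at or below 20.5.

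By a fixed rule, the 5 genes whose log2 values over the 5 samples were most like those of Cd68 were Zfp781, Car3, C1qtnf3, Tmem106a and Slc2a9. The measure was the root mean square difference between profiles centred on their means, over 10539 genes with a mean of at least 50. It was 0.157 for Zfp781 and 0.263 for Slc2a9, against a median of 0.586. Zfp781, a zinc finger gene, had 71.0 and 75.8 normalized counts with knockdown and 44.6, 31.3 and 53.5 with empty vector. Car3, which encodes carbonic anhydrase III, had 253 and 330 with knockdown and 170, 148 and 250 with empty vector. The rule chose these genes for this profile, so their likeness to Cd68 is a description. None of the other 9 genes described was among the 5. The nearest of them, Gabarap, ranked 3335th and Sqstm1 ranked 9808th.

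The 2 abundant membrane proteins of the lysosome differed little between the groups. Lamp1, whose product lines the lysosomal membrane, had 14413 and 14489 normalized counts with knockdown and 13865, 14434 and 14298 with empty vector. The groups overlapped, and the log2 difference was 0.026 with a standard error of 0.066. Its spread over the 5 samples was 1.77% of the mean. Lamp2, which is also needed for fusion of autophagosomes and for uptake of proteins by chaperone-mediated autophagy, had 3913 and 3942 with knockdown. In empty vector samples 1, 2 and 3 it had 4362, 3929 and 4598. The samples divided by flow cell, with all 3 samples of flow cell B between 3913 and 3942 and both samples of flow cell A at 4362 or above. The pooled log2 difference was -0.13 with a standard error of 0.082, and on flow cell B it was -6.91e-04.

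The proteases were as level. Ctsb, which encodes the cysteine protease cathepsin B, had 12478 and 13183 normalized counts with knockdown and 13049, 13039 and 13069 with empty vector. Ctsd, the gene of the aspartic protease cathepsin D, had 8103 and 8085 with knockdown and 8102, 8122 and 7882 with empty vector. For Ctsl, which encodes the cysteine protease cathepsin L, the values were 6891 and 6860 with knockdown and 7085, 7278 and 6407 with empty vector. In all 3 genes the groups overlapped. Their log2 differences were -0.025 ± 0.067 (SE) for Ctsb, 0.011 ± 0.068 for Ctsd and -0.0078 ± 0.076 for Ctsl. Ctsd had the smallest spread of the 10 genes over the 5 samples, at 1.24% of its mean.

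Sqstm1, the gene of the cargo receptor p62, had the lowest log2 difference of the 10 genes. It had 13661 and 13157 normalized counts with knockdown and 15520, 16742 and 14050 in empty vector samples 1, 2 and 3. Both knockdown samples were below every empty vector sample, and empty vector 3 came closest. On average it had 13409 ± 357 (SD) over the 2 knockdown samples and 15437 ± 1348 (SD) over the 3 empty vector samples, or 0.869 times the control level. The log2 difference was -0.20 with a standard error of 0.078, and -0.32 against empty vector 2, which had the highest value. In Sqstm1 and in Cd68, empty vector 2 was the control farthest from the knockdown samples.

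The 2 genes of the ATG8 family had nearly level values. Map1lc3b had 1251 and 1290 normalized counts with knockdown and 1253, 1280 and 1113 with empty vector. Gabarap had 3267 and 3501 with knockdown and 2902, 3449 and 3286 with empty vector. The groups overlapped in both genes. The log2 differences were 0.066 ± 0.091 (SE) for Map1lc3b and 0.078 ± 0.087 for Gabarap, and on flow cell B they were -0.012 and -0.028. The ratio of Sqstm1 to Map1lc3b per kb was 13.6 and 12.7 in the knockdown samples and 15.4, 16.3 and 15.7 in the empty vector samples.

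Tfeb had normalized counts of 220.0 in knockdown 1 and 188 in knockdown 2, against 176, 239 and 172 in empty vector samples 1, 2 and 3. The highest and the lowest value both came from empty vector samples. It had an estimated 204 and 200 reads in the knockdown samples and 165, 295 and 161 reads in the empty vector samples. Its log2 difference was 0.068 with a standard error of 0.18, and -0.24 on flow cell B. The 3 genes with CACGTG in their promoter windows, Lamp1, Ctsd and Ctsl, had log2 differences between -0.0078 and 0.026.

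**Figure D3:**
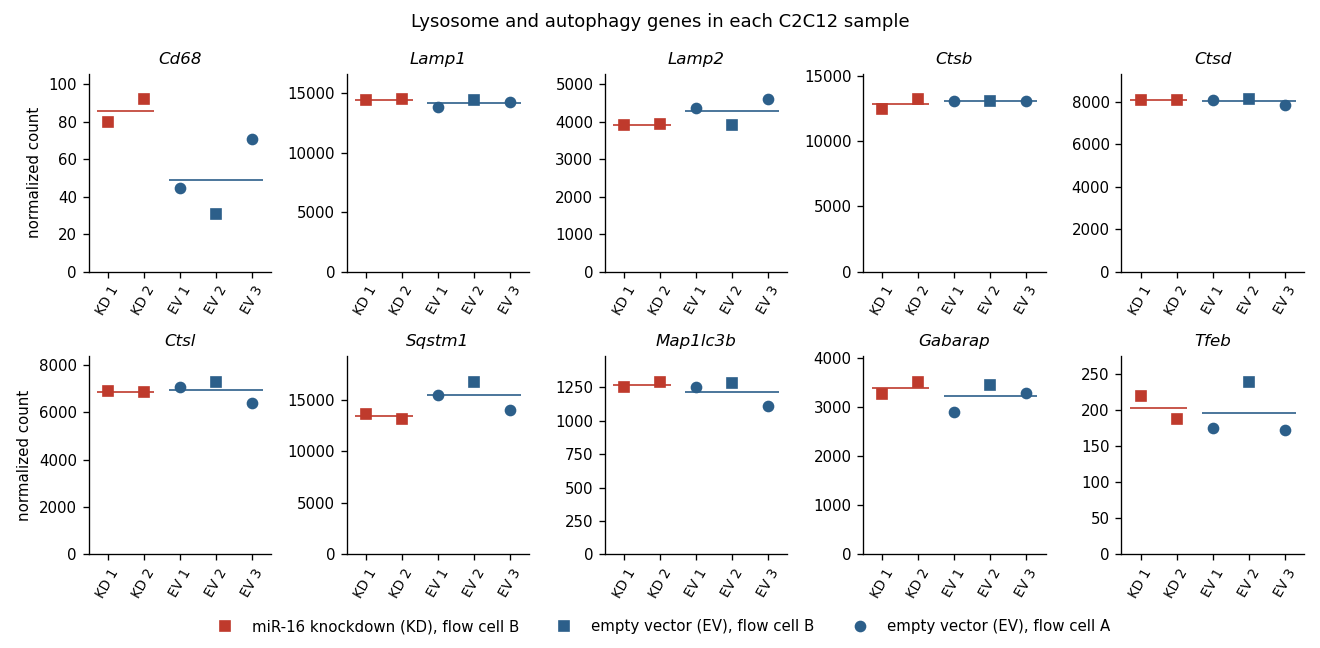
Normalized counts of the 10 genes in each sample, with 1 panel per gene, axes from 0 and lines at the group means. Cd68 in knockdown samples 1 and 2 (79.8 and 91.9) lies above all empty vector samples and Sqstm1 (13661 and 13157) below them, and the groups overlap in the other 8 genes.

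Over the 10 genes, 6 had higher and 4 had lower values with knockdown, and the median log2 difference was 0.018, against 7.25e-04 over all 11990 genes tested. Of all genes tested, 50.2% had higher values with knockdown. In 8 of the 10 the log2 difference was under 0.15 in size. The groups did not overlap in 2 of the 10 genes, or 20.0%. Among all genes tested this held for 23.8%, with 11.4% above and 12.4% below every empty vector sample. None of the 10 passed an adjusted p of 0.05 by limma with Benjamini-Hochberg adjustment over all genes. The same test called 0 of 11990 genes, or 0%, and 975 genes, or 8.13%, had an unadjusted p under 0.05. In the authors' deposited comparison, 70 of 6588 genes with an adjusted p were under 0.05. Of the 8 described genes that have one, 0 were among them. Sqstm1 has a ratio of 0.869 there and an adjusted p of 0.170. Cd68 has a ratio of 1.78 and no adjusted p. The ratios and the adjusted p-values come from separate deposited lists.

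**Figure D4:**
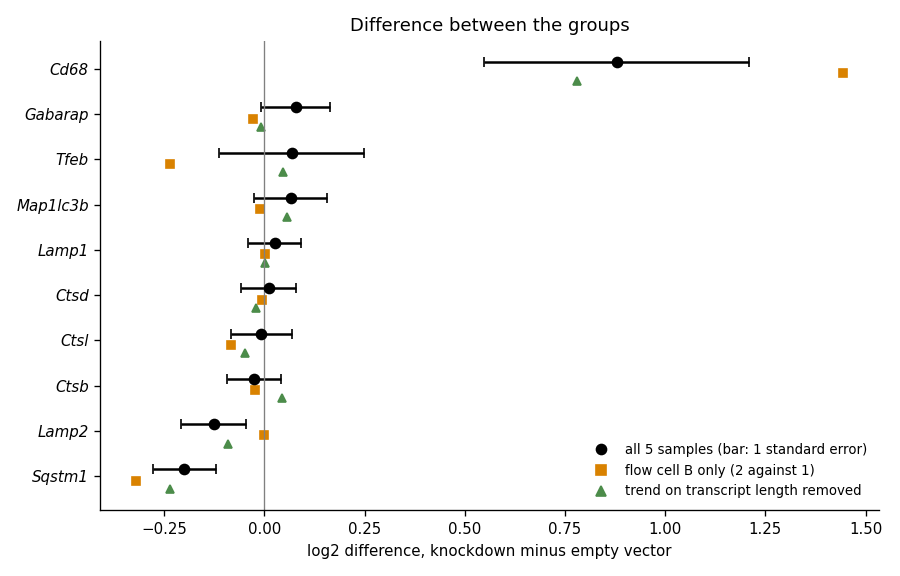
Log2 differences, knockdown minus empty vector, of the 10 genes. Black points with bars of 1 moderated standard error use all 5 samples. Squares use only flow cell B, and triangles are values with the trend on transcript length removed. Cd68 stands at 0.88, and on flow cell B at 1.44, while the other 9 genes lie between -0.20 and 0.078 with all samples and between -0.32 and 0.0017 on flow cell B.

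The differences were also computed with a trend on transcript length removed. In that form Cd68, with a transcript of 1230 nt, had a log2 difference of 0.78. Sqstm1 had -0.24 in the same way and Lamp2 -0.091. Gabarap, with 1351 nt, had -0.0092 and Ctsb, the longest transcript of the set, had 0.045.

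Beyond the 10 genes, 176 of 182 further genes of the pathway fixed in 9 lists were tested, and 0 passed in either direction. In the alternatives, Wdfy3 passed with the replicate number as a block and without knockdown 1, and 0 of the other genes passed in any. Of the 176 genes, 78 had higher and 98 had lower values with knockdown, with a median log2 difference of -0.019. Over all genes tested, 50.2% had higher values, which is also the share to set beside the counts in each list. At an unadjusted p under 0.05 there were 16 of 176, or 9.09%, against 8.13% of all genes. The groups did not overlap in 45 genes, or 25.6%, of which 14 (7.95%) were above and 31 (17.6%) below every empty vector sample. Over all genes tested these shares were 23.8%, 11.4% and 12.4%. The genes named from each list have the 2 highest and the 2 lowest log2 differences at a mean of at least 50. Their adjusted p-values by limma ran from 0.535 to 0.88.

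Among lysosomal membrane proteins, 10 of 22 had higher values with knockdown and the median log2 difference was -0.010. Cln3, the gene mutated in juvenile Batten disease, had 130 and 152 normalized counts with knockdown and 107, 110 and 90.3 with empty vector, a log2 difference of 0.45 ± 0.21 (SE). Mfsd8, a chloride channel gene of another form of that disease, had 0.25 ± 0.22. The calcium and sodium channel gene Tpcn1 and the chloride-proton exchanger gene Clcn7 had the lowest values, at -0.18 ± 0.081 and -0.16 ± 0.088. Cln3 was above, and Tpcn1 and Clcn7 were below, every empty vector sample. On flow cell B, Cln3 had 0.35, Mfsd8 -0.031, Tpcn1 -0.20 and Clcn7 -0.14.

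The digestive enzymes and their activators were evenly split, with 20 of 40 higher and a median log2 difference of 0.0021. Gla, which encodes the alpha-galactosidase deficient in Fabry disease, had 477 and 532 normalized counts with knockdown and 450, 398 and 414 with empty vector. Its log2 difference was 0.26 ± 0.12 (SE), and 0.34 on flow cell B. Ctsh, the cathepsin H gene, had 0.13 ± 0.18. The sialidase gene Neu1 had -0.17 ± 0.12 and the beta-galactosidase gene Glb1 -0.16 ± 0.11. On flow cell B, Ctsh had -0.065, Neu1 -0.017 and Glb1 -0.20. For the proton pump that acidifies the lysosome, the V-ATPase, 9 of 17 subunit genes were higher, with a median of 0.0063. Its alternative membrane subunits Atp6v0a1 and Atp6v0a2 had -0.20 ± 0.090 and -0.18 ± 0.085 and were below every empty vector sample. Atp6v0e2 and Atp6v1e1 had 0.29 ± 0.23 and 0.15 ± 0.096. Without knockdown 2, Atp6v0e2 had -0.036. Flow cell B alone gave -0.19 for Atp6v0a1, -0.15 for Atp6v0a2, 0.24 for Atp6v0e2 and 0.11 for Atp6v1e1.

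Of 12 genes that sort enzymes to the lysosome, 4 had higher values with knockdown, and the median was -0.022. Igf2r, the large receptor for mannose 6-phosphate tags, had 1524 and 1147 normalized counts with knockdown and 1547, 1519 and 1580 with empty vector, so knockdown 2 was the sample apart. Its log2 difference was -0.23 ± 0.11 (SE), or -0.080 with the trend on length removed and -0.024 without knockdown 2. Gnptab, whose product makes that tag, had -0.21 ± 0.091, while the retromer genes Vps26a and Vps29 had 0.069 ± 0.085 and 0.059 ± 0.089. Flow cell B alone gave -0.20 for Igf2r, -0.096 for Gnptab, 0.13 for Vps26a and -0.022 for Vps29.

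In the autophagy lists, genes that start the autophagosome had a median log2 difference of -0.049, with 9 of 22 higher. Wdr45, which encodes a phosphoinositide-binding protein needed for growth of the membrane, had the largest difference of all 176 genes. It had 178 and 168 normalized counts with knockdown and 265, 240 and 250 with empty vector, a log2 difference of -0.54 ± 0.15 (SE). The difference was -0.47 on flow cell B and -0.60 with the trend on length removed, and its groups did not overlap. Atg2a, the gene of a lipid transfer protein of the growing membrane, had -0.27 ± 0.10. Nrbf2 and Atg101, subunits of the kinase complexes that act first, had 0.23 ± 0.12 and 0.16 ± 0.12. Without knockdown 2, Atg101 had 0.014. The values on flow cell B were -0.16 for Atg2a, 0.075 for Nrbf2 and 0.12 for Atg101.

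For the ATG8 family and its conjugation enzymes, 7 of 13 had higher values and the median was 0.075, but -0.038 on flow cell B. Gabarapl2, another ATG8 gene, had 463 and 499 normalized counts with knockdown and 332, 405 and 397 with empty vector, a log2 difference of 0.35 ± 0.13 (SE). Map1lc3a, the gene of LC3A, had 274 and 270 with knockdown and 182, 283 and 206 with empty vector. Its log2 difference was 0.31 ± 0.18 pooled and -0.058 on flow cell B. Gabarapl1 and Atg3 had -0.11 ± 0.11 and -0.094 ± 0.11. On flow cell B they had -0.30 and -0.20, and Gabarapl2 had 0.25.

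Cargo receptors had a median of -0.034, with 7 of 17 higher. Nbr1, the relative of p62 that binds ubiquitin as well, had 1211 and 1142 normalized counts with knockdown. With empty vector it had 1437, 1296 and 1320, all above the knockdown values. Its log2 difference was -0.20 ± 0.088 (SE). Wdfy3, an adaptor gene with a transcript of 14274 nt, had -0.34 ± 0.17, or -0.14 with the trend on length removed. It had 2082 and 1325 normalized counts with knockdown and 2254, 1943 and 2138 with empty vector, so knockdown 1 lay among the controls. Without knockdown 2 the log2 difference was -0.018. Bnip3, a mitophagy receptor gene, had 0.23 ± 0.13, and Optn, the optineurin gene, had 0.11 ± 0.098. The values on flow cell B were -0.14 for Nbr1, -0.23 for Wdfy3, 0.20 for Bnip3 and 0.13 for Optn.

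Genes of fusion with the lysosome had a median of -0.082, with 5 of 18 higher, and 0.010 on flow cell B. Vamp8, the SNARE gene of that fusion, had 861 and 829 normalized counts with knockdown and 616, 769 and 607 with empty vector. Its log2 difference was 0.36 ± 0.11 (SE) pooled and 0.14 on flow cell B. Arl8a, the gene of a GTPase that moves lysosomes along microtubules, had 0.25 ± 0.10 and 0.051 on flow cell B. Epg5 and Tecpr1, tethering factors, had -0.24 ± 0.11 and -0.18 ± 0.12. Without knockdown 2, Epg5 had -0.089. Against empty vector 2 alone, Epg5 had -0.14 and Tecpr1 -0.38.

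Among the relatives of TFEB and the proteins that control it, 7 of 15 had higher values and the median was -0.051. Mitf, a relative of Tfeb, had 107 and 82.6 normalized counts with knockdown and 146, 109 and 141 with empty vector, a log2 difference of -0.48 ± 0.22 (SE). Against empty vector 2 alone, Mitf had -0.21. Fnip2, a partner of folliculin, had -0.26 ± 0.10 and -0.25 on flow cell B. Lamtor4 and Lamtor2, parts of the Ragulator complex that holds mTORC1 on the lysosome, had 0.34 ± 0.20 and 0.29 ± 0.16 pooled. On flow cell B they had -0.12 and -0.030. In Vamp8, Arl8a, Map1lc3a, Lamtor4 and Lamtor2, empty vector 2 was the highest of the 3 controls. This was not particular to them among the genes named as highest in the 9 lists. It also held for Cln3, Mfsd8, Ctsh, Vps29, Atp6v0e2, Atp6v1e1, Nrbf2, Gabarapl2 and Bnip3, but not for Gla, Vps26a, Atg101 and Optn. The part of the flow cell in this was not tested.

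**Figure D5:**
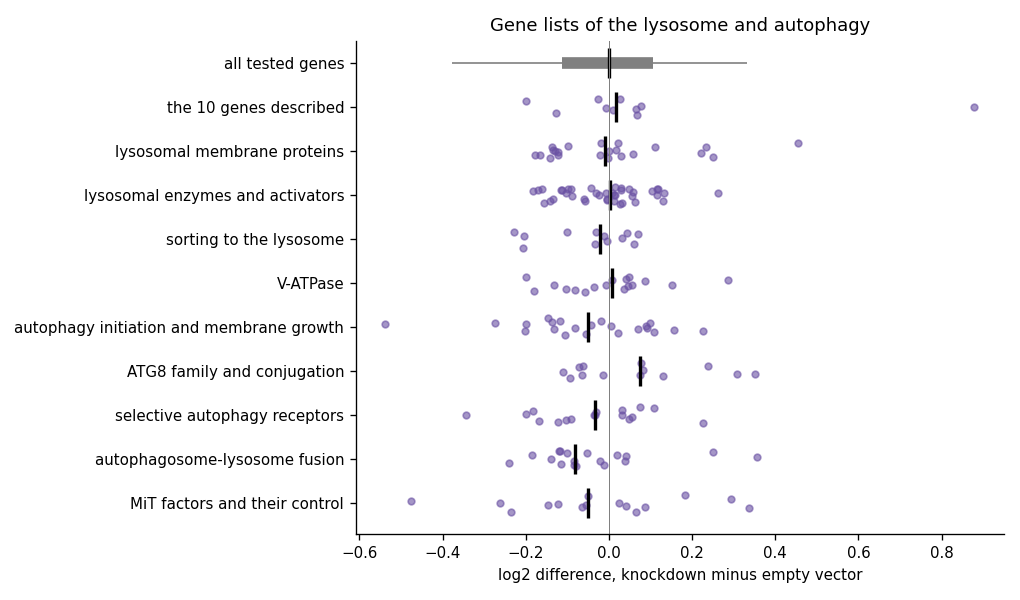
Log2 differences, knockdown minus empty vector, for each tested gene (points) of the 10 genes described and of 9 lists of the pathway, with medians as black ticks. The top row shows all 11990 tested genes, with the interquartile range as a thick bar and the 5th to 95th percentile as a line. List medians lie between -0.082 and 0.075, and Cd68 (0.88) and Wdr45 (-0.54) are the points farthest out.

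The counts of several genes can hold reads of overlapping neighbours, since the strand setting of the counting is not given in the sources used here. In GENCODE M21, exons of Ctsl share 1742 bases with the antisense gene Gm47123, those of Ctsd share 808 with Gm49369, those of Ctsb share 774 with Fdft1 and those of Sqstm1 share 580 with Mrnip. Lamp1 shares 249 exon bases with Grtp1 and Map1lc3b shares 58 with Zcchc14. Mrnip had 20.5 and 41.3 normalized counts with knockdown and 21.4 to 35.7 with empty vector, far below Sqstm1. Grtp1 had 38.8 and 46.0 with knockdown and 40.6 to 69.4 with empty vector, far below Lamp1. Fdft1 had 1325 and 1199 with knockdown and 1118 to 1374 with empty vector, below Ctsb. Zcchc14 had 1706 and 1479 with knockdown and 1713 to 2032 with empty vector, above Map1lc3b, and a log2 difference of -0.20. Gm47123 and Gm49369 were not listed. No exon of Cd68 overlaps another gene, but Eif4a1, the gene of a translation initiation helicase, lies 783 bases away on the same strand. Eif4a1 had 11184 and 10978 normalized counts with knockdown and 10691, 10762 and 9838 with empty vector, a log2 difference of 0.088. Reads from it in Cd68 were not tested.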

How the data were processed

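RNA sequencing values of 5 C2C12 samples were used. STAR, Partek, DESeq2 1.34.0 and the build mm9 are named in the submitters' processing notes, and the role of each is not given in the sources used here. The deposited normalized counts are a signal per gene, judged from the values to be reads divided by 1 size factor per sample. Between 88.7% and 89.2% of values up to 100 reads were whole within 0.02 reads, so no count model was fitted and limma was used. The p-values and ratios of the authors' deposited comparison were copied, and the adjusted p-values came from a separate deposited list. Values were taken as log2(value + 1), and 11990 genes averaging 10 or more were tested two-sided with limma 3.58.1 in R 4.3.3 (trend, robust, Benjamini-Hochberg, threshold 0.05). The procedure was tested on simulated data. Lengths and 3' UTRs are those of 1 GENCODE M21 transcript per gene, the APPRIS principal one with the best support, found for 97.6% of symbols. Level percentiles are over these genes. Coordinates are GRCm38 and come from RefSeq and GENCODE only. The 10 genes, the lists and the rules for named genes were chosen with earlier results of these data known. The named genes are all 10 members, per list the 2 highest and 2 lowest log2 differences at a mean of at least 50, and the 5 profiles nearest to Cd68.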

Additional observations from a re-analysis of the deposited data

How the results depend on the processing

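Of 15 alternatives, 12 also gave 0 genes past the threshold over the whole table. They include pseudocounts of 0.5 and 5, other filters on low values, quantile normalization, no variance trend, flow cell as a term, flow cell B alone and the trend on transcript length removed. Leaving out 1 sample in turn gave 0 to 105 genes, with 35 (31 higher, 4 lower) without empty vector 2 and 105 (1 higher, 104 lower) without knockdown 1. Where 1 knockdown sample or, on flow cell B, 1 control is left, the lone sample is assumed to vary like the other group. Of the 10 genes, 0 passed in each of these 14 alternatives. With the replicate number as a block, 311 genes passed (62 higher, 249 lower), Cd68, Sqstm1 and Wdfy3 among them. That fit had 1 residual degree of freedom. Empty vector 3 is alone in its block and adds nothing to the difference there, which was 1.18 for Cd68 and -0.27 for Sqstm1. In both genes empty vector 3 was the control nearest to the knockdown samples. The deviations of equally numbered samples from their group means correlated at 0.086 and 0.029 over 11990 genes. With 2 knockdown samples, the deviation of 1 mirrors that of the other. These correlations are therefore not separate checks and cannot decide whether equal numbers are pairs. The 2 pairs are not known to share a culture. The sign of the difference was the same in all 15 alternatives for Cd68 (0.60 to 1.44), Lamp1, Lamp2 (-0.19 to -6.91e-04) and Sqstm1 (-0.32 to -0.14). It turned in 6 for Tfeb (-0.24 to 0.22), in 6 for Ctsd, in 3 for Gabarap and in 2 each for Ctsb, Ctsl and Map1lc3b. The cause was not tested. Not all of the 15 are separate checks, since the filters on low values and the variance trend cannot change a gene's difference. Flow cell as a term repeats the difference of flow cell B alone, and the replicate block repeats that without empty vector 3. Depth limits Cd68, whose counting error alone was 10.1% to 16.2% per sample.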
